A study of Mus musculus with 10 samples.

Results

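The Schlafen genes are a family of interferon-responsive genes that sit side by side in the mouse genome. Of the 24538 genes in the count tables, 7 were described here: *Slfn1*, *Slfn2*, *Slfn3*, *Slfn4*, *Slfn5*, *Slfn8* and *Slfn9*. They were taken by name, and all 7 were among the 11571 genes tested. A gene was tested when its mean FPKM (fragments scaled by transcript length and sequencing depth) was at least 1 in either group. Each of the 7 reached that level in both groups, so none entered through the group in which it was high.

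The study profiled metastasis-associated macrophages (MAMs) and resident alveolar macrophages (RAMs) by RNA-seq, with 5 libraries of each. All mice were wild type C57BL6/J, assigned at random to the groups, and 8 to 10 weeks old. The MAM mice were females that had received E0771-LG cells, a syngenic mouse mammary tumour line, through the tail vein at 6 to 8 weeks of age. MAMs were sorted from dissected lung metastases under 1 mm, with tissue of 2 to 4 mice pooled per library, and RAMs from normal lungs of untreated mice handled in parallel. By the study's methods a sample is 1 mouse or such a pool, so a RAM library stands for 1 mouse. Both populations were CD45+F4/80+LY6C-MRC1+ with high forward scatter. MAMs were the CD11B+CD11C- cells and RAMs the CD11B-CD11C+ cells, and inhibitors of transcription were present while the tissues of both were digested. There was no CD11B+ population from normal lung and no CD11C+ population from metastases, so the presence of a metastasis and the kind of macrophage cannot be told apart in any value given here. The p-values measure the spread between single mice in RAMs and between pools in MAMs.

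Libraries held 55391447 to 87523247 counts on genes in MAMs and 50746305 to 72150650 in RAMs. Of 9 tested alveolar macrophage markers, 8 were lower in MAMs, as were 15.1% of all tested genes by the rule given further on, and their summed level was 204 to 425 CPM (counts scaled to a common library size) in MAMs and 9065 to 11539 CPM in RAMs. They ran from *Fabp1* (log2 fold change -6.80) to *Marco* (-0.67, not called). Of 7 markers of monocytes and monocyte-derived macrophages, 6 were higher in MAMs, as were 15.3% of all tested genes. Their summed level was 6211 to 6874 CPM in MAMs and 287 to 323 CPM in RAMs. This list holds *Itgam*, which encodes the sorted antigen CD11B, and without it the sums were 1440.2 to 1521 and 227 to 264 CPM. They ran from *C1qa* (6.81) to *Adgre1* (0.37, not called).

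Schlafen proteins share an N-terminal core, and the mouse family falls into 3 size classes. Short members are little more than this core, intermediate members carry an additional middle segment, and long members end in a helicase-like domain. The first members were found in developing and activated T cells, where *Slfn1* restrains growth and *Slfn2* maintains quiescence. In myeloid cells several members are induced by type I interferon, which acts through IFNAR1 and IFNAR2, the kinases JAK1 and TYK2, and a complex with STAT2 and IRF9 that binds the interferon-stimulated response element (ISRE) in promoters. Some members bind transfer RNA: long members can cleave it, and SLFN2 protects it from cleavage.

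The 7 genes lay on chromosome 11 between bases 82951349 and 83215154 (GRCm38, GENCODE M21), a span of 263806 bases. From left to right the order was *Slfn5*, *Slfn9*, *Slfn8*, *Slfn2*, *Slfn1*, *Slfn4* and *Slfn3*, with *Slfn9* and *Slfn8* on the minus strand and the others on the plus strand. *Slfn1* and *Slfn2* encode 337 and 378 residues, the intermediate *Slfn4* and *Slfn3* encode 602 and 640, and the long *Slfn5*, *Slfn8* and *Slfn9* encode 884, 910 and 910. Within this family 2 pairs stood apart by similarity. The coding sequences of *Slfn3* and *Slfn4* were identical at 92.7% of aligned bases and those of *Slfn8* and *Slfn9* likewise at 92.7%, while the next pair, *Slfn2* and *Slfn4*, reached 77.1%.

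Promoters of the 7 members were read from RefSeq (GRCm38.p6), 250 bases before to 50 bases after each start. The interferon-stimulated response element was searched on both strands as the letters GAAA, any 2 bases, and GAAA again. It was found in 3 of the 7 members, *Slfn5*, *Slfn8* and *Slfn9*, and in 3.99% of all 27025 genes in the table (3.44% of 32851 promoters). The gamma-activated site, searched on both strands as TTCNNNGAA, was found in none of the 7 and in 9.55% of all genes (8.30% of promoters). The matches are printed because type I interferon acts through this element and because *Slfn8* and *Slfn9* can be compared base by base. Each run is written 5′ to 3′ on the strand of its gene with the match in capitals, which in *Slfn8* and *Slfn9* is the reverse complement of the letters searched. The runs are chr11:82951932-82951971 on the plus strand, chr11:83020834-83020873 on the minus strand and chr11:82991851-82991890 on the minus strand.
Slfn5: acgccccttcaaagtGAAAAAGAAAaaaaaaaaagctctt
Slfn8: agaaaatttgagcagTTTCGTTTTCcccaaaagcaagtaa
Slfn9: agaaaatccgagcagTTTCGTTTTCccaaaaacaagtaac

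The match began 155 bases before the RefSeq start of *Slfn5* and 45 bases before that of *Slfn9*. GENCODE M21 begins *Slfn5* farther left, at 82951349, so this match lies inside the gene as placed above. *Slfn8* has 2 starts in the table, and its match began 48 and 136 bases before them. The 10 letters in capitals were the same in *Slfn8* and *Slfn9*, whose levels are set side by side further on. Since these genes are so alike, their matches are not independent. Members with a match had log2 fold changes of 6.64 (*Slfn5*), 4.75 (*Slfn8*) and 1.20 (*Slfn9*). Those without had 6.42 (*Slfn1*), 6.27 (*Slfn4*), 1.85 (*Slfn3*) and 1.73 (*Slfn2*). A link between the element and the change was not tested. No match means only that these letters are not in the window.

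All 7 Schlafen genes were higher in MAMs than in RAMs, and none was lower. The lowest of the 5 MAM libraries was above the highest RAM library in every member. A gene was called when its fold change was over 2 at an adjusted p under 0.05 by the quasi-likelihood test of edgeR, with Benjamini-Hochberg adjustment over all tested genes. By this rule 15.3% of all tested genes were higher in MAMs, and in 23.7% all MAM libraries were above all RAM libraries. The median log2 fold change was 4.75 over the 7 genes and -0.02 over all tested genes. The changes fell into 2 ranges: *Slfn5*, *Slfn1*, *Slfn4* and *Slfn8* had log2 fold changes over 4, as did 5.15% of all tested genes, and *Slfn3*, *Slfn2* and *Slfn9* had values under 2. In such bulk samples, fewer cells that express a gene and less RNA of it per cell cannot be told apart.

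**Figure D1:**
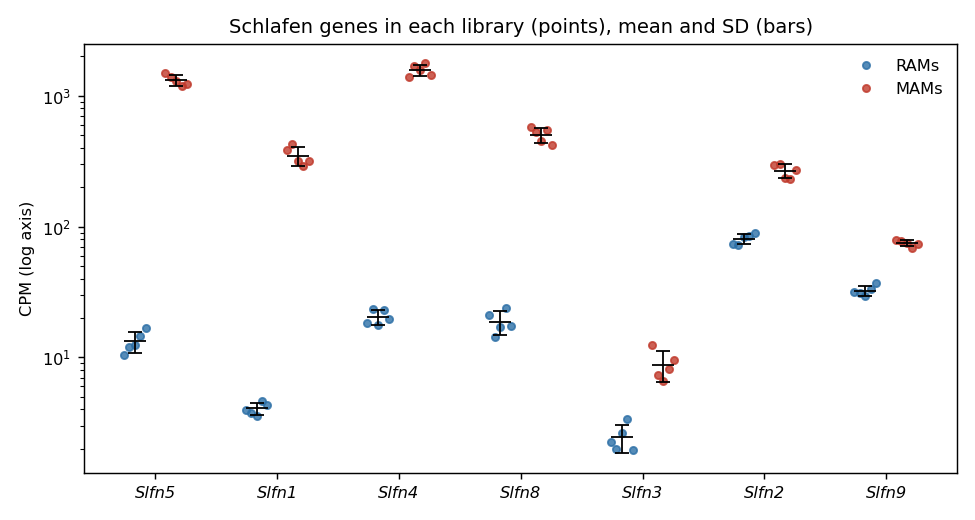
CPM of the 7 Schlafen genes on a log axis, with 1 point per library (MAMs red, RAMs blue) and bars for the mean and SD of 5 libraries. In each gene the MAM points lie above the RAM points, with the widest gap in Slfn5 (means of 1318 and 13.2 CPM) and the narrowest in Slfn9 (74.7 and 32.4 CPM).

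*Slfn1*, a short member and the founder of the family as a growth regulator of T cells, lies at 83116849 to 83122670. Its levels in MAM libraries 1 to 5 were 385, 426, 316, 293 and 319 CPM, and in RAM libraries 1 to 5 they were 3.99, 3.78, 3.58, 4.65 and 4.35 CPM. The lowest MAM library was far above the highest RAM library. The means were 348 ± 55.6 CPM in MAMs and 4.07 ± 0.431 CPM in RAMs (SD, n = 5 each), and the log2 fold change was 6.42 (SE 0.137, adjusted p = 1.22e-14, edgeR).

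*Slfn2*, the other short member, lies at 83065112 to 83070678. Its protein is known to keep T cells and monocytes in a quiescent state and to shield transfer RNA. The MAM libraries held 298, 299.8, 236, 231 and 271 CPM, and the RAM libraries 73.7, 72.2, 83.5, 84.3 and 89.1 CPM. The groups did not overlap, but *Slfn2* was the most abundant Schlafen gene of the RAMs. The means were 267 ± 32.8 and 80.6 ± 7.31 CPM (SD, n = 5 each), with a log2 fold change of 1.73 (SE 0.0979, adjusted p = 7.73e-10, edgeR).

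*Slfn4*, an intermediate member of myeloid cells that interferon and Toll-like receptor ligands induce, lies at 83175186 to 83190216. The MAM libraries held 1379, 1688, 1581, 1765 and 1439 CPM, the highest mean of the family. The RAM libraries held 18.2, 23.4, 17.5, 23.1 and 19.5 CPM, so that every MAM library was far above every RAM library. The means were 1571 ± 163 and 20.3 ± 2.73 CPM (SD, n = 5 each), and the log2 fold change was 6.27 (SE 0.121, adjusted p = 5.48e-15, edgeR).

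*Slfn3*, the near copy of *Slfn4*, lies next to it at 83191330 to 83215154. It was the least abundant member in both groups, with 12.5, 7.27, 6.62, 8.16 and 9.49 CPM in MAMs and 2.26, 1.98, 2.65, 3.40 and 1.94 CPM in RAMs. The lowest MAM library lay above the highest RAM library, and the spread between libraries was the widest of the family, with a coefficient of variation of 26.3% in MAMs and 24.7% in RAMs. The log2 fold change was 1.85 (SE 0.309, adjusted p = 1.11e-04, edgeR). These levels rest on 296 to 661 counts per MAM library and 91 to 163 per RAM library.

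*Slfn5*, a long member known as a target of type I interferon that also acts in the nucleus on transcription, lies at 82951349 to 82964840. The MAM libraries held 1498, 1380.4, 1288, 1196 and 1228 CPM. The RAM libraries held 10.4, 12.1, 12.4, 14.5 and 16.7 CPM. The gap between the groups was the largest of the family: the means were 1318 ± 123 and 13.2 ± 2.43 CPM (SD, n = 5 each), and the log2 fold change was 6.64 (SE 0.140, adjusted p = 1.07e-14, edgeR), a 99.7-fold difference.

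*Slfn8*, a long member with the helicase-like end, lies at 83002158 to 83020810. The MAM libraries held 579.5, 525, 449.5, 543 and 419 CPM and the RAM libraries 21.1, 14.2, 16.9, 23.9 and 17.4 CPM, with a wide gap between the groups. The means were 503 ± 66.6 and 18.7 ± 3.81 CPM (SD, n = 5 each), and the log2 fold change was 4.75 (SE 0.151, adjusted p = 1.10e-12, edgeR).

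*Slfn9*, of the same length and most like *Slfn8*, lies at 82978390 to 82991830. Its 5 MAM libraries held 79.2, 77.2, 74.2, 68.7 and 74.1 CPM, and its RAM libraries 31.3, 31.2, 29.7, 33.1 and 36.8 CPM. It varied least between libraries, with a coefficient of variation of 5.31% in MAMs and 8.48% in RAMs, and the groups did not overlap. The log2 fold change was the smallest of the family, 1.20 (SE 0.0982, adjusted p = 5.37e-08, edgeR). When libraries were scaled by their totals alone it was 0.99 and missed the 2-fold mark, with 6 of the 7 members then called higher. A test against a fold change of 2 gave an adjusted p of 0.0331 (edgeR).

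**Figure D2:**
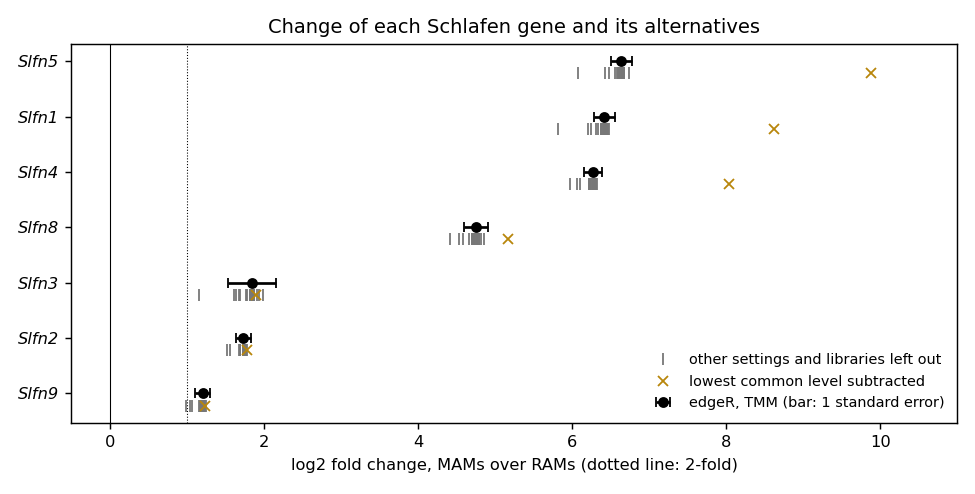
Log2 fold change of MAMs over RAMs for each Schlafen gene (black points, bars of 1 standard error), with grey ticks for other settings and for fits without 1 library and a cross for the fit with the lowest common level subtracted. Slfn5, Slfn1, Slfn4 and Slfn8 lie between 4.75 and 6.64 and Slfn3, Slfn2 and Slfn9 between 1.20 and 1.85, and the only tick left of the dotted 2-fold line is that of Slfn9 at 0.99.

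Members that are most alike in sequence differed in how far they moved. In MAM libraries the counts of *Slfn4* were 111 to 239 times those of *Slfn3* (median 216), and in RAM libraries 6.62 to 11.8 times (median 8.06). The log2 ratio was 4.43 higher in MAMs, and no library of one group reached the range of the other (two-sided exact permutation test, p = 0.00794 and, over the 2 pairs, adjusted p = 0.00794; 5 against 5 libraries can give no smaller p). *Slfn8* counts were 5.66 to 7.90 times those of *Slfn9* in MAMs and 0.455 to 0.721 times in RAMs, so the order of this pair turned. The log2 ratio was 3.56 higher in MAMs (exact permutation test, two-sided, p = 0.00794, adjusted p = 0.00794).

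Reads of such pairs can be hard to place. Of all 100-base windows in the transcripts of a member, the share that also occurs in another gene was 0% in *Slfn1*, 0.128% in *Slfn2*, 0.271% in *Slfn4* and 0.238% in *Slfn5*. It was 2.92% in *Slfn3*, 3.39% in *Slfn8* and 3.71% in *Slfn9*. Most of this sharing was not within the pairs: 93 of the 99 shared windows of *Slfn3* occur in *Gm11427*, and 105 of 145 in *Slfn8* and 181 of 221 in *Slfn9* occur in the pseudogene *Slfn10-ps*. Counts of *Slfn3* came to 0.419% to 0.904% of those of *Slfn4* in MAM libraries, and counts of *Slfn9* to 12.7% to 17.7% of those of *Slfn8*. How many reads of these genes or of the abundant partner were counted on *Slfn3*, *Slfn8* or *Slfn9* was not tested, and their levels and the ratios above are uncertain to that extent. The strand setting of the counting is not given in the sources used here. The antisense gene *Slfn5os*, which overlaps *Slfn5*, was listed at 0 in all 10 libraries. *Gm20234*, an antisense gene over *Slfn2*, was not analysed here, and if strand was not used its reads and those of *Slfn2* cannot be told apart. The microRNA gene *Mir7679*, inside *Slfn9*, had at most 19 counts.

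The sum over the family does not depend on how reads are split between its members. The 7 genes together held 4232, 4404, 3952, 4105 and 3760.5 CPM in MAM libraries 1 to 5 and 161, 159, 166, 187 and 186 CPM in RAM libraries. In other words, 29.9 to 35.0 of every 10000 counts on genes were Schlafen counts in MAMs and 1.47 to 1.72 in RAMs. The means were 4090.5 ± 248 and 172 ± 13.6 CPM (SD, n = 5 each). The log2 difference was 4.58 (exact permutation test, two-sided, p = 0.00794), and it was 4.06 without *Slfn4*. On summed FPKM, which weights the short members more, it was 3.82.

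The make-up of these counts differed as well. *Slfn4* held 38.4% ± 3.79 of the family's counts in MAMs and 11.9% ± 1.76 in RAMs, *Slfn5* 32.2% ± 2.27 and 7.66% ± 0.898, and *Slfn1* 8.48% ± 0.982 and 2.37% ± 0.136 (SD, n = 5 each). In RAMs *Slfn2* held 46.9% ± 2.16 against 6.53% ± 0.694 in MAMs, *Slfn9* 18.9% ± 1.02 against 1.83% ± 0.116, and *Slfn3* 1.42% ± 0.300 against 0.216% ± 0.0564. Each of these 6 shares differed with no overlap between groups (exact permutation test, two-sided, adjusted p = 0.00926 over 7 shares). The 7 shares of a library add up to the whole, so these tests are not independent of each other or of the fold changes. A lower share is not a lower level, since all 7 genes were higher in MAMs. The share of *Slfn8* was 12.3% ± 1.13 in MAMs and 10.9% ± 1.95 in RAMs, a difference of 1.41 points that did not pass the test (exact permutation test, adjusted p = 0.183). As a share of summed FPKM the difference was 4.94 points and passed it (adjusted p = 0.00794, exact permutation test). On that scale the other shares kept their direction, but the difference grew from 6.11 to 14.4 points for *Slfn1* and shrank from -17.1 to -8.30 points for *Slfn9*. For *Slfn5* it went from 24.6 points to 16.1 by counts per kilobase. *Slfn1*, *Slfn4*, *Slfn5* and *Slfn8* together made up 90.6% to 92.5% of the Schlafen counts in MAMs and 30.4% to 35.3% in RAMs.

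**Figure D3:**
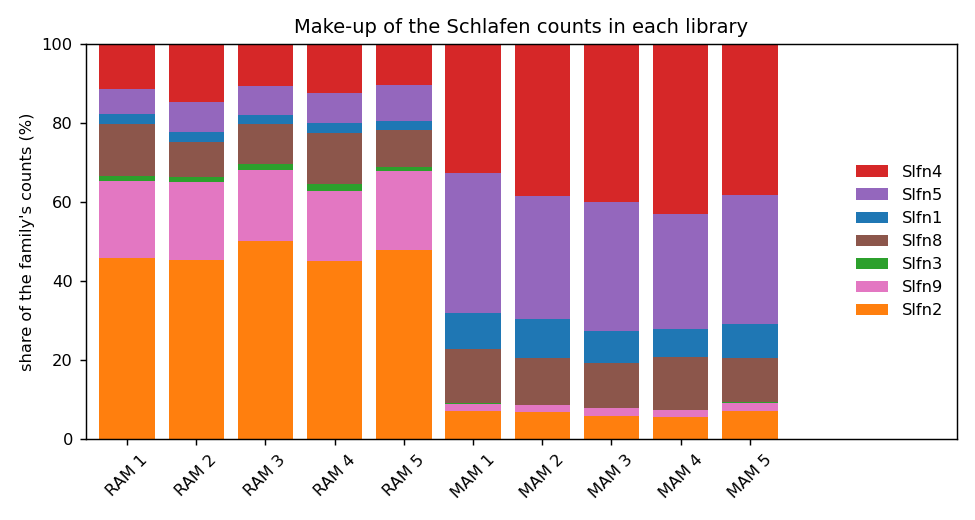
Share of each Schlafen gene in the family's counts (percent, stacked to 100) in the 5 RAM and 5 MAM libraries. Slfn2 and Slfn9 take most of each RAM bar (means of 46.9% and 18.9%), and Slfn4 and Slfn5 most of each MAM bar (38.4% and 32.2%).

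Levels of different genes were compared per length, on the deposited FPKM values. In MAMs the order was *Slfn4* (338 ± 37.4 FPKM), *Slfn5* (206 ± 19.4), *Slfn1* (177 ± 29.4), *Slfn2* (165 ± 20), *Slfn8* (109 ± 14.9), *Slfn9* (15.8 ± 0.787) and *Slfn3* (4.24 ± 1.01), as means ± SD of 5 libraries. The ranges of *Slfn5* and *Slfn1* overlapped, and so did those of *Slfn1* and *Slfn2*, so the ranges do not order these neighbours. Within libraries, *Slfn5* was above *Slfn1* in 4 of 5, by FPKM and by counts per kilobase of merged exons. *Slfn1* was above *Slfn2* in 4 of 5 by FPKM and in 5 of 5 by counts per kilobase. In RAMs *Slfn2* led with 50.6 ± 4.35 FPKM, followed by *Slfn9* (7.06 ± 0.647), *Slfn4* (4.42 ± 0.649), *Slfn8* (4.13 ± 0.809), *Slfn1* (2.13 ± 0.180), *Slfn5* (2.06 ± 0.338) and *Slfn3* (1.34 ± 0.418). Here *Slfn4* and *Slfn8*, *Slfn1* and *Slfn5*, and *Slfn5* and *Slfn3* overlapped in range. *Slfn9* was above *Slfn4* in 5 of 5 libraries by FPKM and in 3 of 5 by counts per kilobase of merged exons. *Slfn5* was above *Slfn3* in 5 of 5 libraries on both scales. On these scales in turn, *Slfn4* was above *Slfn8* in 2 and 3 of 5, and *Slfn1* above *Slfn5* in 4 and 3 of 5. The RAM levels of *Slfn5*, *Slfn1* and *Slfn4* were close to the lowest seen for abundant MAM genes, as described below. Their places in the RAM order are less certain for that reason.

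**Figure D4:**
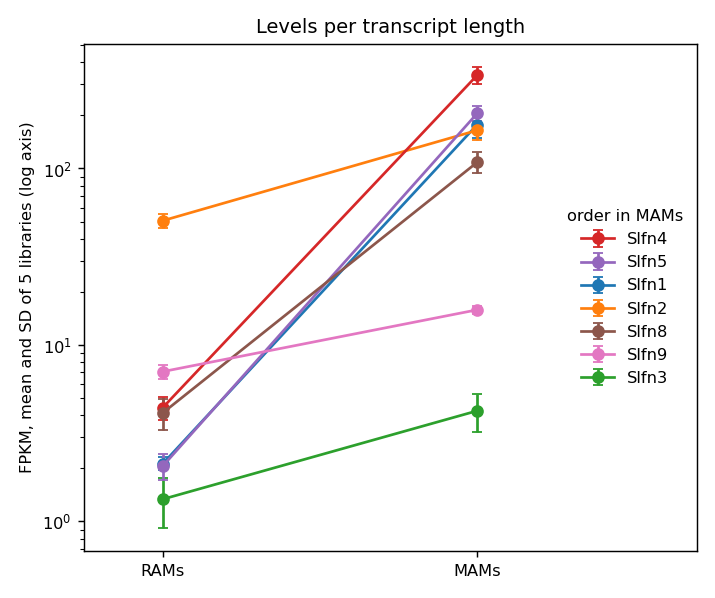
Mean FPKM (log axis, bars of 1 SD over 5 libraries) of each Schlafen gene in RAMs and MAMs, joined by a line per gene. The lines cross: Slfn2 leads in RAMs at 50.6 FPKM, and Slfn4 leads in MAMs at 338 FPKM, where Slfn5, Slfn1 and Slfn2 lie close together at 206, 177 and 165 FPKM with overlapping neighbours.

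The RAM levels of the most changed members were close to the lowest that RAM libraries show for any abundant MAM gene. Of 85 genes above 1000 CPM in MAMs (scaled by library totals), the lowest RAM level was 1.06% of the MAM level. Under 2% lay 11 genes, with *Slfn4* and *Slfn5* themselves among both the 85 and the 11. In the other direction, the lowest MAM level was 0.992% of the RAM level over 64 genes, of which 1 lay under 2%. On the same scale, the RAM level was 1.16% of the MAM level for *Slfn5*, 1.36% for *Slfn1* and 1.5% for *Slfn4*, against 4.31% for *Slfn8*, 32.3% for *Slfn3*, 35.0% for *Slfn2* and 50.4% for *Slfn9*. Among the 76 other genes at least as high in MAMs as *Slfn5*, 4 had a lower RAM percentage. For *Slfn4* it was 7 of 59. For *Slfn1*, whose MAM level of 277 CPM was under the limit of 1000 CPM, it was 26 of 525. Taking this lowest level off left 0 to 221 counts of *Slfn5* per RAM library, where 601 to 803 had been, and a log2 fold change of 9.88 (SE 1.03, adjusted p = 3.00e-06, edgeR). The same step gave 8.62 for *Slfn1* and 8.04 for *Slfn4*, and 5.17 for *Slfn8*, all still called. Taking a share of the MAM level off RAM counts raises the fold change of such genes, so their direction was fixed in advance. What part of the RAM counts of these genes came from RAMs was not tested, and their fold changes are less certain than their standard errors show. The same limit holds for the RAM orders, shares and ratios above that use these genes. After this step 0 to 221 counts of *Slfn5* were left per RAM library, against 87 to 159 of *Slfn3*.

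Of the other genes with a Slfn symbol, *Slfn10-ps*, a transcribed pseudogene between *Slfn8* and *Slfn2*, had 81.8, 84.1, 58.8, 78.4 and 72.3 CPM in MAMs and 1.93, 1.08, 1.86, 0.960 and 2.39 CPM in RAMs. Its log2 fold change was 5.52 (SE 0.248, adjusted p = 5.28e-11, edgeR). It entered the test only through MAMs, and 7.84% of its 100-base windows also occur in other genes, mostly in *Slfn9*. *Slfn14*, a long member linked to platelets, had at most 79 counts in any library, and *Slfnl1*, on chromosome 4, at most 196. Neither was tested.

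For each member the 3 tested genes with the most similar profile were found, by the root mean square difference of log2 CPM over the 10 libraries after centring each gene. Since 5 libraries of each group are set against each other, this mostly finds genes with a like fold change. The nearest genes to *Slfn1* were *Oas3*, *Ifit2* and *Ifitm3* (0.125, 0.127 and 0.139), all known interferon-induced antiviral genes. *Slfn8* was nearest to *Zbp1*, *Ifi204* and *Gbp6* (0.188, 0.194 and 0.212), a nucleic acid sensor, an interferon-inducible DNA sensor and a guanylate-binding protein. *Slfn4* had as neighbours *Il7r* (0.200), a cytokine receptor, *Mx1* (0.203), an interferon-induced GTPase, and *Igf2r* (0.208). The neighbours of *Slfn5* were *C1qb*, *Thbs1* and *C1qc* (0.126, 0.133 and 0.140), which encode complement C1q chains and thrombospondin. Around *Slfn2* were *Ldha*, *Samhd1* and *Cstb* (0.0932, 0.0969 and 0.103), around *Slfn9* *2810474O19Rik*, *Actr3* and *Dcp2* (0.0690, 0.0822 and 0.0869), and around *Slfn3* *Plekho2*, *Dok1* and *Psme2* (0.241, 0.244 and 0.246).

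Genes around the cluster were read from the same fit. Over all tested genes, 15.3% were called higher and 15.1% lower, with a median log2 fold change of -0.02. Within 500 kb of the cluster's ends, 20 other genes were tested. Of these 7 were called higher in MAMs and 1 lower, with a median log2 fold change of 0.29. The higher genes were the chemokines *Ccl5* (5.19), *Ccl9* (5.37), *Ccl3* (1.75) and *Ccl4* (5.5), the long noncoding *E230016K23Rik* (2.56), and *Wfdc17* (5.5) and *Wfdc18* (4.37), given as log2 fold changes. The nearest of them, *Ccl5*, began 311 kb beyond the cluster. Between it and the Schlafen genes, and within 500 kb on the other side, no tested gene outside the family was called higher: *AI662270*, 8.42 kb away, had a log2 fold change of 0.52, and *Rad51d*, a recombination factor 60.7 kb away, was lower with -1.0. Farther out on that side, within 1 Mb, the chemokine genes *Ccl8* (7.08), *Ccl12* (6.32), *Ccl7* (6.77) and *Ccl2* (6.05) were called higher, 835 to 914 kb away.

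**Figure D5:**
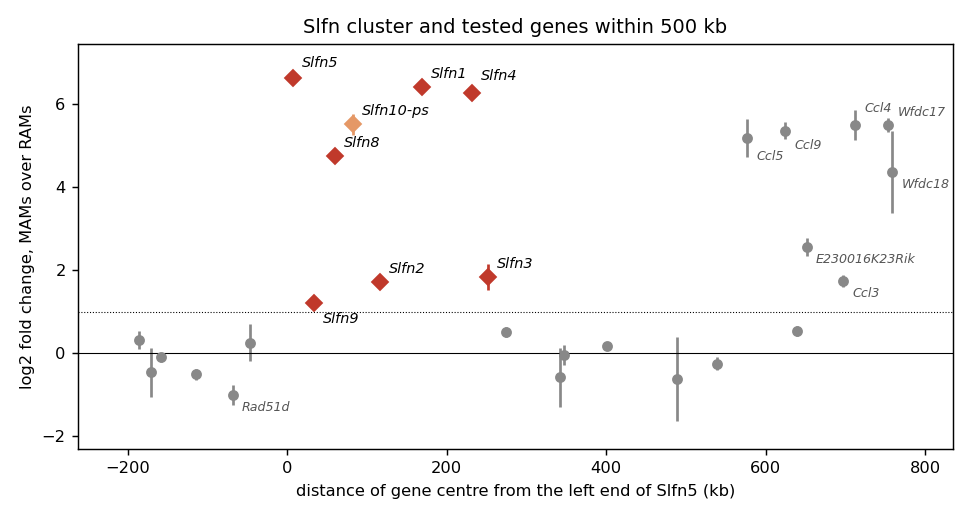
Log2 fold change of MAMs over RAMs for tested genes against their distance from the left end of Slfn5 (kb), measured at gene centres, with members in red, Slfn10-ps in orange, flanking genes in grey and bars of 1 standard error. Members stand between 1.20 and 6.64. The nearest flanking gene, AI662270, lies at 0.52, and Rad51d, called lower, at -1.0. The flanking genes called higher are chemokine genes, Wfdc genes and E230016K23Rik, from 311 kb past the cluster's end.

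Interferon signaling genes moved along with the family. Of 11 genes for interferon receptors and JAK-STAT factors, 8 were called higher in MAMs and 0 lower, with a median log2 fold change of 1.88. Over all tested genes 15.3% were called higher and 15.1% lower, with a median of -0.02. Several of the 11 genes were singled out by the study from these samples, so the list is not independent of them. The type I receptor genes *Ifnar1* and *Ifnar2* had log2 fold changes of 2.15 and 1.88, and *Stat2* and *Irf9*, of the ISRE-binding complex, had 2.76 and 2.10. *Irf1*, a transcription factor, rose by 2.36, *Jak2* by 1.36 and the type II receptor gene *Ifngr2* by 1.34. Not called were *Jak1* (0.60), *Tyk2* (-0.38) and *Ifngr1* (-0.11, adjusted p = 0.281, edgeR). Of 7 negative regulators of interferon signaling 4 were higher and 0 lower (median 3.13), from *Usp18* (6.27), which removes ISG15 and blocks the receptor, to *Ptpn6* (-0.02, not called). The 4 most changed Schlafen genes, picked by their change in these data, had log2 fold changes above those of all 11 receptor and JAK-STAT genes. The other 3 members, *Slfn3* (1.85), *Slfn2* (1.73) and *Slfn9* (1.20), lay below the median of that list (1.88).

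Because *Slfn1* and *Slfn2* are known as growth regulators, quiescence and proliferation genes were counted too. Of 14 quiescence genes 2 were higher and 3 lower (median -0.11), from *Klf2* (2.30), a factor of quiescent T cells, to *Tob1* (-2.19), an antiproliferative protein. Of 10 proliferation genes 1 was higher and 6 lower (median -1.74), against 15.3% and 15.1% of all tested genes. The higher one was *Ccnd1*, cyclin D1 (5.40), with 264 ± 59.0 CPM in MAMs and 6.25 ± 1.27 CPM in RAMs (SD, n = 5 each), and the lowest was *Mki67* (-2.77), a marker of cycling cells. Of 8 genes for transfer RNA cleavage and protection 5 were tested and 0 were called by edgeR or by DESeq2. They ran from *Rnh1* (0.22) to *Ang* (-0.74). Only 1, *Rnh1*, had an unadjusted p under 0.05. It also passed after adjustment (adjusted p = 0.0428, edgeR), but its change was under 2-fold.

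Schlafen genes are also active in lymphocytes and neutrophils, so markers of other cells were read beside them. Over all tested genes 15.3% were called higher and 15.1% lower. Of 8 T and NK cell markers with counts, 2 passed the filter and 1, *Cd4*, was higher. The summed level of the 8 was 8.63 to 14.0 CPM in MAMs and 1.31 to 6.64 CPM in RAMs. Most of the MAM sum was *Cd4*, with means of 10.1 CPM in MAMs and 0.619 CPM in RAMs. *Cd3e* did not pass the test (log2 fold change 0.37, means of 1.58 CPM in MAMs and 1.22 CPM in RAMs). Of 3 tested B cell markers 0 were called by edgeR or DESeq2 and 0 had an unadjusted p under 0.05 (3.29 to 19.1 and 2.45 to 15.4 CPM). Of 4 tested neutrophil markers 3 were higher, and 1 under upper-quartile scaling, with sums of 94.1 to 242 CPM in MAMs and 96.9 to 152 CPM in RAMs. The defining neutrophil gene *Ly6g* had 0 to 66 counts in MAM libraries and 0 in RAM libraries, and the tested markers ran from *S100a9* (3.47) to *Mmp8* (-0.48, not called). The part of these cells in the Schlafen levels was not tested. Of 5 tested epithelial and tumour markers 1 was higher and 3 lower (15.6 to 30.8 CPM in MAMs and 539 to 648 CPM in RAMs). They ran from *Esr1* (6.84) to *Epcam* (-6.88). Whether these counts came from other cells or from the macrophages themselves was not tested. No erythroid marker passed the filter.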

How the data were processed

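RNA-seq was done on 5 MAM and 5 RAM libraries (Ovation RNA-Seq System V2, paired 100 bp reads). Per the paper and the submitters' processing notes, the authors aligned reads to GRCm38/mm10 with TopHat2 2.0.13 and counted uniquely mapped reads with HTSeq 0.6.1 on UCSC RefGene models. The authors deposited whole-number counts per gene and, from Cufflinks 2.2.1, FPKM values. Strand setting is not given in the sources used here. Lines that name no gene, 54.6% to 58.3% of each MAM and 62.2% to 64.1% of each RAM library, were left out. No 2 libraries of a group agreed within sampling noise. Errors cover the spread between libraries, and amplified reads carried no molecular identifiers, so counts are not numbers of molecules.

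Genes whose mean FPKM reached 1 in MAMs or RAMs, and which had any count, were tested with edgeR 4.0.16 (R 4.3.3; TMM, quasi-likelihood, no covariate, Benjamini-Hochberg), with 2 as prior count of log2 CPM. CPM values are TMM-scaled, except the sums of cell markers, which use library totals. Standard errors were derived from the fold change and the F statistic. Gene positions and transcripts came from GENCODE M21. The merged exon lengths behind counts per kilobase came from it too, while the counts were made on UCSC RefGene models. Counts per kilobase are approximate for that reason. The fits were tested on simulated data. The members and gene lists were chosen with earlier results of these data known. Named were all Slfn genes, the 3 genes nearest to each member, all receptor and JAK-STAT genes, the highest and lowest of other lists, and called flanking genes. Some genes that this rule would name are not reported here. *AI662270*, *Ly6g*, *Mir7679*, *Gm11427*, *Gm20234*, *Itgam* and the chemokine genes beyond 500 kb were named after their values were seen. Alternatives were DESeq2 1.42.0, limma 3.58.1 on log2 FPKM with a pseudocount of 1 or 0.1, other scalings and filters, a replicate block, a test against 2-fold and each library left out. Subtraction of the lowest common level, the ratios within pairs, the monocyte marker sum without *Itgam* and the family sum with *Slfn10-ps* and *Slfn14* were chosen after seeing the data.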

Additional observations from a re-analysis of the deposited data

How the results depend on the processing

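Each member was refitted under 21 alternatives, and all kept their direction and their call except *Slfn9* with library totals only (log2 fold change 0.99, adjusted p = 4.19e-07, edgeR). The fold changes ranged from 5.82 to 8.62 for *Slfn1*, 1.52 to 1.78 for *Slfn2*, 1.16 to 1.99 for *Slfn3*, 5.97 to 8.04 for *Slfn4*, 6.08 to 9.88 for *Slfn5*, 4.42 to 5.17 for *Slfn8* and 0.99 to 1.25 for *Slfn9*, all on the log2 scale. The upper ends for *Slfn1*, *Slfn4*, *Slfn5* and *Slfn8* came from subtracting the lowest common level. That step raises the fold change of such genes, so it could not reverse their direction. With 1 library left out, the ranges were 6.33 to 6.47, 6.22 to 6.32, 6.56 to 6.73 and 4.66 to 4.85, in that order. Upper-quartile scaling moved the median of all genes by -0.16 and library totals by -0.21. The replicate numbers did not pair the samples: deviations of samples with the same number correlated at -0.0366 to 0.0294, and 2 of 5 MAM libraries correlated best with the RAM library of their number. With the number as a replicate block 7 members were called, as without it. The family sum had log2 differences of 3.82 (summed FPKM) to 4.61 (a library left out) over its alternatives, and permuting within replicate numbers gave the same 4.58 with p = 0.0625, the smallest that such an exact permutation test on 5 pairs allows. The share of *Slfn8* in the family differed by 4.61 points when counts were divided by exon length. Extending the flanks to within 1 Mb gave 11 genes called higher and 2 lower among 31 tested, beside 15.3% and 15.1% of all tested genes. The wider window itself adds these genes.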
